A study of Mus musculus with 19 samples.

Results

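Immediate early genes are transcribed within minutes when a neuron fires, from proteins already present in the cell, and are switched off again soon after. Calcium entry and receptor signalling act through kinases on the transcription factors CREB and SRF at these genes, and most of the products are themselves transcription factors that go on to regulate slower genes. In the striatum they are widely used as a readout of dopamine and glutamate signalling to the spiny projection neurons, the cells most affected in Huntington's disease. The 10 genes described here were Fos, Fosb, Fosl2, Junb, Egr1, Egr2, Egr4, Arc, Npas4 and Nr4a1. The list names them for their known response to activity and not by a rule on measured values. It was nevertheless chosen with earlier results of these data known. Each gene was found by its symbol among the 54232 genes of the count table. All 10 passed the filter on low counts and were among the 18521 genes tested.

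The striatum of mice 6 months old, on the strain background C57/BL/6, was dissected after decapitation and its RNA was sequenced. There were 7 WT mice and 4 mice of each KI line (KI-FL, KI-571 and KI-96). KI-FL mice are HD140Q knock-in mice, in which the mouse huntingtin gene carries an expanded polyQ repeat and full-length mutant HTT is made. KI-96 and KI-571 were made from the same line by CRISPR-Cas9 in zygotes, so that their mutant allele ends early and yields an N-terminal fragment, the shorter one in KI-96, and in all 3 lines the endogenous promoter drives the mutant allele, so that no cell type is singled out. The study worked with heterozygous KI mice because homozygous KI-96 and KI-571 mice did not survive, but the labels give neither zygosity nor sex of the mice sequenced, nor how long before decapitation each was handled. A whole tissue was measured, in which fewer cells of a type and less RNA per cell cannot be told apart.

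Total counts on genes ran from 12669809 to 26388542 per mouse, and among WT mice replicates 5 to 7 (23457270 to 26388542) had larger totals than replicates 1 to 4 (17281603 to 18945441). Levels are given as CPM, each count as a share of the mouse's scaled library. Several libraries stood apart. KI-FL replicate 4 had 0 counts for 3186 of the tested genes, against 222 at most elsewhere. Xist, the RNA that silences an X chromosome, was abundant (886 CPM or more) in every KI-96 mouse and in WT replicate 1 and KI-FL replicate 2, but in no other mouse (at most 5.05 CPM). Cortical excitatory neuron markers had a summed level of 1110 CPM in WT replicate 3 and of 481 CPM in KI-571 replicate 2, against 172 CPM at most in the other mice. The 12 markers of striatal projection neurons fixed for this work were detected in all 19 mice, with a summed level between 5710 and 9610 CPM. Every fold change of a member was also computed without each mouse in turn.

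The 10 genes were chosen for how they respond and not for their sequence, but their promoters are known for sharing binding sites of CREB and SRF. Because the genes moved together from mouse to mouse, the 250 bases before their transcription start were searched on both strands. RefSeq windows on GRCm38.p6 were given for 8 of the 10, in all cases but Egr1 and Arc. The core of the CREB site, TGACG, was found before 7 of these 8 genes, where 19.8% of all 27025 genes with a window have it. Fosl2 was the exception. The windows of Npas4 and Fosl2 lay wholly within annotated exons (overlap of 250 bases). For these genes the letters searched were therefore exon sequence in the annotation used for the counts. The full palindrome TGACGTCA, which contains that core, was found before 0 of the 8 (1.77% of all genes), and the AP-1 site TGANTCA before 0 (7.82%). The CArG box, bound by SRF, was found before 1, Egr2 (1.62%). Egr2 had several windows, not all of them with the box, and each other gene had a single window. Only boxes of the form CC, 6 letters A or T, GG were searched for, and none farther from the start, so other SRF sites could be missed. The site of the EGR proteins, GCGNGGGCG, was found before 3, namely Fosb, Fosl2 and Nr4a1 (5.33%). A match is a run of letters in this window and not a measured site. The windows of 5 genes that overlap no annotated exon are shown because they carry these matches, from 5′ to 3′ up to the last base before the start, with TGACG on either strand and the CArG box in capitals.
Fos, chr12:85473640-85473889, plus strand: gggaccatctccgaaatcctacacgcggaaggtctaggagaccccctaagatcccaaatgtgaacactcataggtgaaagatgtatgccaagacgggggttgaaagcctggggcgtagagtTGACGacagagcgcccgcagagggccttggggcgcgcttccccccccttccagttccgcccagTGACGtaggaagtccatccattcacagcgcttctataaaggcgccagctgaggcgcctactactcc
Egr2, chr10:67537619-67537868, plus strand: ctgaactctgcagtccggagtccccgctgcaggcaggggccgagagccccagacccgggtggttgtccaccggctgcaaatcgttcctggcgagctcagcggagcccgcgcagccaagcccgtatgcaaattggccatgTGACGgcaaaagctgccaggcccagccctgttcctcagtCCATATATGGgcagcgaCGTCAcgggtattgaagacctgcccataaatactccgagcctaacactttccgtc
Egr4, chr6:85513590-85513839, minus strand: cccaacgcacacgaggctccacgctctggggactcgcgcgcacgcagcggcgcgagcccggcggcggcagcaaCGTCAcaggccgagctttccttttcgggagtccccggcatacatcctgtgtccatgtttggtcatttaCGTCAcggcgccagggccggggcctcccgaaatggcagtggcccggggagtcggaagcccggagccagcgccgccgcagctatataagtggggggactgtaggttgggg
Junb, chr8:84978749-84978998, minus strand: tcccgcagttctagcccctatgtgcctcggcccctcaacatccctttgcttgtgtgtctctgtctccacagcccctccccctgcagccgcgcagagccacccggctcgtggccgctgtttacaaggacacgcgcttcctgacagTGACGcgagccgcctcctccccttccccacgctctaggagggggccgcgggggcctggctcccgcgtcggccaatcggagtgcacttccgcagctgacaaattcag
Nr4a1, chr15:101266596-101266845, plus strand: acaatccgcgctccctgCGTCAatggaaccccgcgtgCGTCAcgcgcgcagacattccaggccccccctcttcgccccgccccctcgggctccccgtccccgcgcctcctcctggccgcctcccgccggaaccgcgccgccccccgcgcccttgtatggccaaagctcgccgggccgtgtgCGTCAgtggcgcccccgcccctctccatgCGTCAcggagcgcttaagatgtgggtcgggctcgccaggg

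Nr4a1 carried 4 copies of the core, the most among these windows, and Fos, Egr2 and Egr4 carried 2 each. In Egr2 the CArG box lay between the 2 cores, from 72 to 63 bases before the start. The nearest core to the start was that of Nr4a1, from 40 to 36 bases before it, and in Fos the nearer core lay from 66 to 62 bases before the start, with a TATA box (TATAAA) from 33 to 28 bases before it.

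Set per length of exon, so that genes can be compared, Egr1 was the most abundant of the 10, at 62.3 ± 15.4 RPKM (the CPM divided by the exon length in kilobases, SD over the 19 mice), followed by Arc at 41.5 ± 18.97, Nr4a1 at 33.5 ± 14.7, Junb at 32 ± 10.6 and Egr4 at 27.9 ± 11.02 RPKM. The other 5 were far lower, with Npas4 at 6.13 ± 3.18, Fos at 5.93 ± 3.74, Fosl2 at 4.67 ± 2.41, Fosb at 4.41 ± 1.48 and Egr2 at 4.19 ± 2.4 RPKM. Neighbours in this order had means that lay within each other's SD, except Egr1 and Arc, whose intervals of 1 SD overlapped without reaching the other's mean, and Egr4 and Npas4, whose intervals did not overlap. The best known of these genes, Fos, was thus among the scarce ones in this tissue. The depth was enough to count all of them: the lowest count of any member in any mouse was 55 reads, of Egr2 in WT replicate 3, and the highest was 8146, of Egr1.

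None of the 10 genes differed between a KI genotype and WT at an adjusted p-value under 0.05 by the quasi-likelihood test of edgeR, adjusted over all 18521 tested genes by the Benjamini-Hochberg method. In KI-96 mice 0 of 10 were called, where 0.027% of all tested genes were, and KI-571 mice gave 0 of 10 against 0.0324% and KI-FL mice 0 of 10 against 0.194%. At an unadjusted p under 0.05 the count was also 0 of 10 in each of the 3 comparisons, where 7.45%, 7.72% and 16.7% of all tested genes had such a p. DESeq2 called 0 of 10 in each as well, where it called 0.151%, 0.574% and 2.75% of the genes to which it gave an adjusted p. On average most members were lower than in WT: 8 of 10 in KI-96, 7 of 10 in KI-571 and 8 of 10 in KI-FL mice, with a median log2 fold change over the 10 of -0.37, -0.14 and -0.20, where the median over all tested genes was -0.015, -0.0089 and -0.028. These comparisons share the 7 WT mice. For all 10 members the ranges of the mice overlapped between every pair of genotypes. Of all tested genes, the CPM ranges did not overlap between WT mice and KI-96, KI-571 or KI-FL mice for 1.24%, 1.55% and 5.29%, between KI-96 mice and KI-571 or KI-FL mice for 2.85% and 3.16%, between KI-571 mice and KI-FL mice for 4.32%, and for at least 1 of these pairs for 13.9%.

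**Figure D1:**
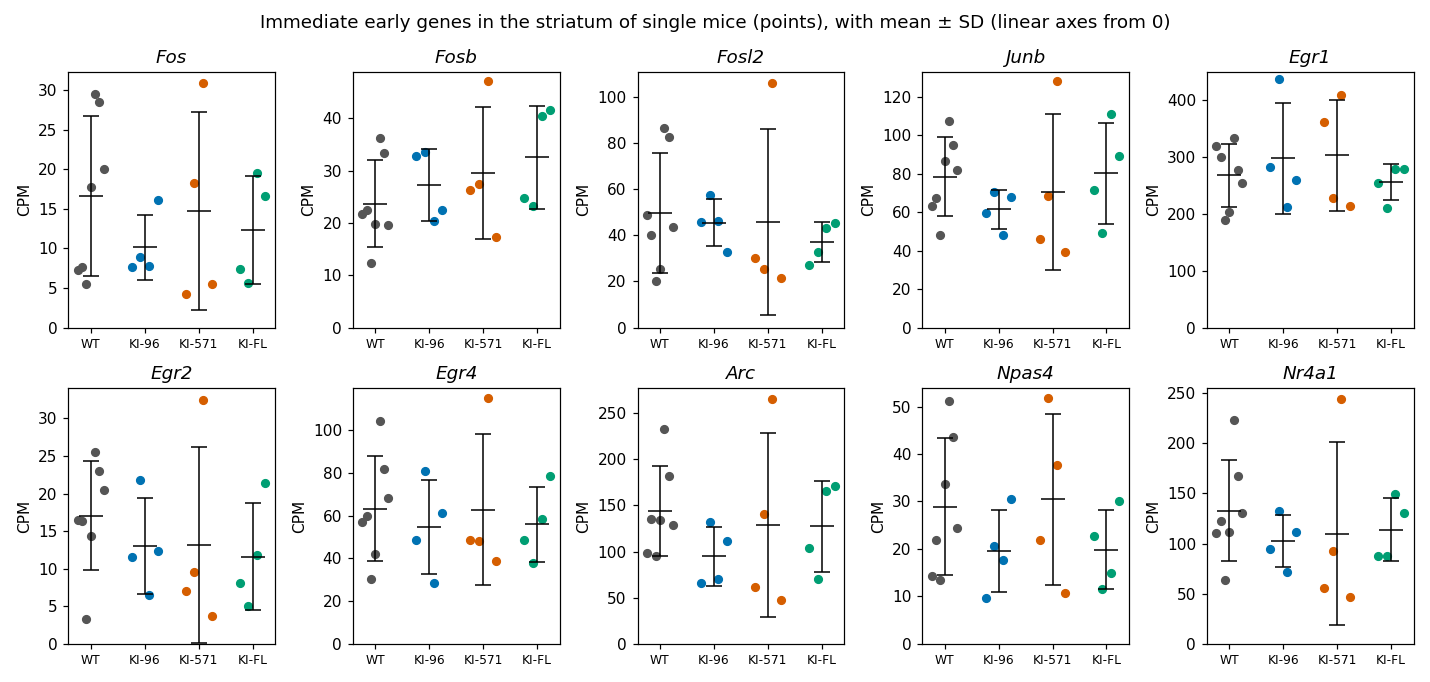
Level of each of the 10 immediate early genes in CPM (linear axes from 0) in 7 WT mice and 4 mice of each KI line, in replicate order from left to right; points are single mice, bars the mean ± SD. In 8 of the 10 panels the highest point of all is KI-571 replicate 3, at 30.9 CPM for Fos and 243.8 CPM for Nr4a1, and the genotypes overlap in every panel.

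Fos, Fosb, Fosl2 and Junb encode subunits of AP-1, a dimer of a FOS and a JUN protein that binds DNA through a basic leucine zipper. Fos (ENSMUSG00000021250.13, chromosome 12 from 85473890 to 85477273) encodes the classical, short-lived FOS protein. Fos lay between 5.49 and 29.6 CPM in the 7 WT mice, with a median of 17.8. It was at 7.65, 8.89, 7.81 and 16.2 CPM in KI-96 replicates 1 to 4, 4.18, 18.3, 30.9 and 5.48 CPM in KI-571 replicates 1 to 4, and 7.37, 5.62, 19.5 and 16.6 CPM in KI-FL replicates 1 to 4. Each genotype held lower and higher mice, all 4 ranges overlapped, and WT replicates 5 to 7 made up the top of the WT range. The means were 16.6 ± 10.1 CPM (SD, n = 7) in WT, 10.1 ± 4.07 in KI-96, 14.7 ± 12.5 in KI-571 and 12.3 ± 6.83 in KI-FL mice (SD, n = 4 each). Against WT its log2 fold change was -0.71 in KI-96 (95% interval -1.79 to 0.37), -0.19 in KI-571 (95% interval -1.24 to 0.86) and -0.43 in KI-FL (95% interval -1.50 to 0.63) mice, with adjusted p-values from edgeR of 0.786, 0.985 and 0.691. All 3 intervals include 0, and Fos was among the members that varied most.

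Fosb (ENSMUSG00000003545.3, chromosome 7 from 19302696 to 19310051) encodes FOSB and, by splicing, the stable form ΔFOSB that builds up in striatal neurons under repeated stimulation; a count per gene does not separate these forms. Fosb lay between 12.4 and 36.2 CPM in the 7 WT mice, with a median of 21.7. KI mice had 32.8, 33.6, 20.4 and 22.4 CPM in KI-96 replicates 1 to 4, 26.3, 27.4, 47.2 and 17.3 CPM in KI-571 replicates 1 to 4, and 24.8, 23.3, 40.5 and 41.6 CPM in KI-FL replicates 1 to 4. The lowest mouse was WT replicate 3 and the highest KI-571 replicate 3. Mean levels of Fosb were 23.6 ± 8.3 CPM (SD, n = 7) in WT, 27.3 ± 6.86 in KI-96, 29.6 ± 12.6 in KI-571 and 32.5 ± 9.85 in KI-FL mice (SD, n = 4 each). It was the only member whose mean was lowest in WT mice and above WT in all 3 KI genotypes in CPM. The log2 fold change against WT was 0.20 in KI-96 (95% interval -0.35 to 0.75), 0.32 in KI-571 (95% interval -0.23 to 0.86) and 0.46 in KI-FL (95% interval -0.086 to 1.005) mice, with adjusted p-values from edgeR of 0.901, 0.891 and 0.383. The value in KI-FL mice had the smallest adjusted p of any member against WT by edgeR, and it does not pass.

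Fosl2 (ENSMUSG00000029135.10, chromosome 5 from 32135801 to 32157842) encodes FRA-2, a FOS protein of slower time course. Fosl2 lay between 20.2 and 86.5 CPM in the 7 WT mice, with a median of 43.5. Levels were 45.6, 57.4, 46.03 and 32.7 CPM in KI-96 replicates 1 to 4, 30.3, 25.3, 106 and 21.3 CPM in KI-571 replicates 1 to 4, and 26.9, 32.8, 42.9 and 45.4 CPM in KI-FL replicates 1 to 4. A single mouse, KI-571 replicate 3, lay above all others, and the 3 other KI-571 mice were among the lower ones. Fosl2 averaged 49.5 ± 25.9 CPM (SD, n = 7) in WT, 45.4 ± 10.1 in KI-96, 45.6 ± 40.2 in KI-571 and 37.02 ± 8.66 in KI-FL mice (SD, n = 4 each). Set against WT, Fosl2 had a log2 fold change that was -0.13 in KI-96 (95% interval -0.94 to 0.68), -0.12 in KI-571 (95% interval -0.93 to 0.68) and -0.42 in KI-FL (95% interval -1.24 to 0.40) mice, with adjusted p-values from edgeR of 0.967, 0.991 and 0.606. Junb (ENSMUSG00000052837.6, chromosome 8 from 84974484 to 84978718) encodes the JUN partner JUNB. Junb lay between 47.9 and 107 CPM in the 7 WT mice, with a median of 82.1. It was at 59.4, 70.2, 48.2 and 68.1 CPM in KI-96 replicates 1 to 4, 46.3, 68.6, 128 and 39.1 CPM in KI-571 replicates 1 to 4, and 71.8, 49.2, 111 and 89.2 CPM in KI-FL replicates 1 to 4. The same KI-571 mouse was highest and KI-571 replicate 4 lowest. The means were 78.5 ± 20.3 CPM (SD, n = 7) in WT, 61.5 ± 10 in KI-96, 70.5 ± 40.4 in KI-571 and 80.3 ± 26.2 in KI-FL mice (SD, n = 4 each). Against WT its log2 fold change was -0.35 in KI-96 (95% interval -0.91 to 0.20), -0.16 in KI-571 (95% interval -0.71 to 0.39) and 0.033 in KI-FL (95% interval -0.51 to 0.58) mice, with adjusted p-values from edgeR of 0.795, 0.969 and 0.959. Of the exon bases of Junb, 173 (7.52%) overlap Prdx2 on the opposite strand, and the strand setting of the counting is not given in the sources used here, so that reads there cannot be told apart.

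Egr1, Egr2 and Egr4 encode zinc finger transcription factors that bind the same GC-rich site. Egr1 (ENSMUSG00000038418.7, chromosome 18 from 34859823 to 34864984), also known as Zif268, was the steadiest member. Egr1 lay between 189.7 and 333 CPM in the 7 WT mice, with a median of 277. KI mice had 282, 438, 212 and 260.4 CPM in KI-96 replicates 1 to 4, 361, 229, 410.2 and 213 CPM in KI-571 replicates 1 to 4, and 255, 211, 279 and 279.6 CPM in KI-FL replicates 1 to 4. The highest mouse was only 2.31-fold above the lowest, and the ranges of all 4 genotypes overlapped. Mean levels of Egr1 were 268 ± 55.4 CPM (SD, n = 7) in WT, 298 ± 97.8 in KI-96, 303 ± 97.3 in KI-571 and 256 ± 32.2 in KI-FL mice (SD, n = 4 each). The log2 fold change against WT was 0.15 in KI-96 (95% interval -0.26 to 0.56), 0.18 in KI-571 (95% interval -0.23 to 0.59) and -0.067 in KI-FL (95% interval -0.48 to 0.35) mice, with adjusted p-values from edgeR of 0.9, 0.947 and 0.886. These were the narrowest intervals of the 10 genes.

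Egr2 (ENSMUSG00000037868.15, chromosome 10 from 67535475 to 67542188), also known as Krox20, varied most. Egr2 lay between 3.25 and 25.5 CPM in the 7 WT mice, with a median of 16.5. Levels were 11.5, 21.8, 6.51 and 12.3 CPM in KI-96 replicates 1 to 4, 7.01, 9.52, 32.4 and 3.71 CPM in KI-571 replicates 1 to 4, and 8.1, 4.99, 11.9 and 21.5 CPM in KI-FL replicates 1 to 4. The highest mouse, KI-571 replicate 3, was 9.99-fold above the lowest, WT replicate 3, which itself lay far under the other 6 WT mice. Egr2 averaged 17.1 ± 7.27 CPM (SD, n = 7) in WT, 13.03 ± 6.37 in KI-96, 13.2 ± 13.1 in KI-571 and 11.6 ± 7.15 in KI-FL mice (SD, n = 4 each). Set against WT, Egr2 had a log2 fold change that was -0.40 in KI-96 (95% interval -1.44 to 0.64), -0.38 in KI-571 (95% interval -1.42 to 0.66) and -0.55 in KI-FL (95% interval -1.61 to 0.50) mice, with adjusted p-values from edgeR of 0.893, 0.958 and 0.595. Egr4 (ENSMUSG00000071341.4, chromosome 6 from 85511121 to 85513589) encodes a neuronal member of the family. Egr4 lay between 30.4 and 104 CPM in the 7 WT mice, with a median of 59.7. It was at 48.6, 81.04, 28.4 and 61.2 CPM in KI-96 replicates 1 to 4, 48.8, 48.3, 115 and 38.8 CPM in KI-571 replicates 1 to 4, and 48.7, 37.8, 58.3 and 78.8 CPM in KI-FL replicates 1 to 4. Its extremes were KI-96 replicate 3 and KI-571 replicate 3. The means were 63.4 ± 24.7 CPM (SD, n = 7) in WT, 54.8 ± 22.1 in KI-96, 62.8 ± 35.4 in KI-571 and 55.9 ± 17.4 in KI-FL mice (SD, n = 4 each). Against WT its log2 fold change was -0.21 in KI-96 (95% interval -0.88 to 0.45), -0.015 in KI-571 (95% interval -0.67 to 0.64) and -0.18 in KI-FL (95% interval -0.85 to 0.48) mice, with adjusted p-values from edgeR of 0.917, 0.998 and 0.795.

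Npas4 and Nr4a1 encode transcription factors of other families. Npas4 (ENSMUSG00000045903.8, chromosome 19 from 4984355 to 4990316) encodes a basic helix-loop-helix PAS protein that responds to calcium entry in neurons and hardly to other stimuli. Npas4 lay between 13.5 and 51.1 CPM in the 7 WT mice, with a median of 24.3. KI mice had 9.6, 20.6, 17.6 and 30.6 CPM in KI-96 replicates 1 to 4, 21.9, 51.8, 37.7 and 10.6 CPM in KI-571 replicates 1 to 4, and 22.7, 11.5, 14.9 and 30.1 CPM in KI-FL replicates 1 to 4. Here the highest mouse was KI-571 replicate 2 and not replicate 3, and WT replicate 5 was almost as high. Mean levels of Npas4 were 28.9 ± 14.4 CPM (SD, n = 7) in WT, 19.6 ± 8.69 in KI-96, 30.5 ± 18.01 in KI-571 and 19.8 ± 8.33 in KI-FL mice (SD, n = 4 each). The log2 fold change against WT was -0.56 in KI-96 (95% interval -1.40 to 0.28), 0.07 in KI-571 (95% interval -0.74 to 0.88) and -0.55 in KI-FL (95% interval -1.39 to 0.29) mice, with adjusted p-values from edgeR of 0.782, 0.996 and 0.501. Nr4a1 (ENSMUSG00000023034.7, chromosome 15 from 101254269 to 101274795), also known as Nur77, encodes an orphan nuclear receptor that dopamine signalling regulates in the striatum. Nr4a1 lay between 63.6 and 223 CPM in the 7 WT mice, with a median of 122. Levels were 94.3, 132, 71.2 and 112 CPM in KI-96 replicates 1 to 4, 56.01, 92.8, 244 and 46.6 CPM in KI-571 replicates 1 to 4, and 87.4, 87.9, 149.5 and 130.4 CPM in KI-FL replicates 1 to 4. KI-571 mice held both the highest and the lowest mouse. Nr4a1 averaged 133 ± 50.4 CPM (SD, n = 7) in WT, 102 ± 25.9 in KI-96, 109.8 ± 91.6 in KI-571 and 114 ± 31.2 in KI-FL mice (SD, n = 4 each). Set against WT, Nr4a1 had a log2 fold change that was -0.38 in KI-96 (95% interval -1.11 to 0.35), -0.28 in KI-571 (95% interval -1.004 to 0.45) and -0.22 in KI-FL (95% interval -0.95 to 0.50) mice, with adjusted p-values from edgeR of 0.851, 0.957 and 0.769.

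Arc (ENSMUSG00000022602.14, chromosome 15 from 74669083 to 74672570) encodes an effector at the synapse and no transcription factor; its protein drives the removal of AMPA receptors from the membrane. Arc lay between 95.6 and 233 CPM in the 7 WT mice, with a median of 135. It was at 66.1, 132, 70.5 and 112 CPM in KI-96 replicates 1 to 4, 61.5, 141, 265 and 47.05 CPM in KI-571 replicates 1 to 4, and 104, 69.8, 166 and 171 CPM in KI-FL replicates 1 to 4. KI-571 mice again spanned the whole range, with replicate 4 lowest and replicate 3 highest of all 19. The means were 144 ± 48.4 CPM (SD, n = 7) in WT, 95.04 ± 31.9 in KI-96, 129 ± 99.98 in KI-571 and 128 ± 49.3 in KI-FL mice (SD, n = 4 each). Against WT its log2 fold change was -0.60 in KI-96 (95% interval -1.36 to 0.16), -0.16 in KI-571 (95% interval -0.91 to 0.59) and -0.17 in KI-FL (95% interval -0.92 to 0.58) mice, with adjusted p-values from edgeR of 0.741, 0.983 and 0.83. In KI-96 mice Arc had the smallest adjusted p of the 10 genes by edgeR. The Arc levels of KI-96 replicates 1 and 3 were below all WT mice and those of replicates 2 and 4 were within the WT range. KI-571 replicates 1 and 4 and KI-FL replicate 2 were also below all WT mice.

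**Figure D2:**
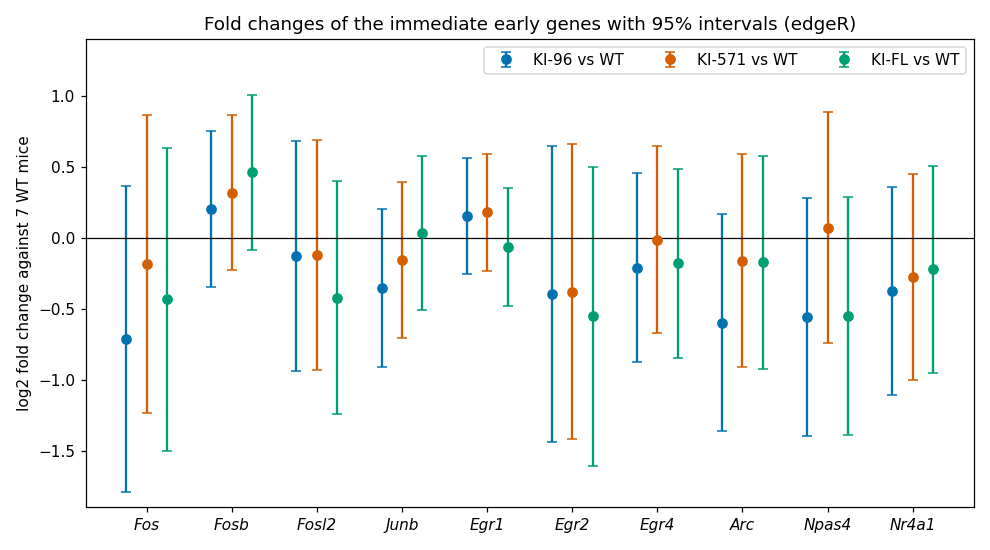
Log2 fold change of each gene in the mice of each KI line against 7 WT mice (points), with 95% intervals from edgeR's fit over all 19 mice (bars). Every interval includes 0; they are narrowest for Egr1 and widest for Fos and Egr2.

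With the mean of the 3 KI genotypes set against WT, 0 of 10 members were called by edgeR, where 0.054% of all tested genes were, and 0 had an unadjusted p under 0.05. The smallest p-values belonged to Fosb (log2 fold change 0.33, 95% interval -0.10 to 0.75, adjusted p = 0.518) and Egr2 (log2 fold change -0.44, 95% interval -1.21 to 0.33, adjusted p = 0.651), the one higher and the other lower in KI mice on average, with adjusted p from edgeR as above. Over all tested genes 12.9% had an unadjusted p under 0.05. DESeq2 called 0 of 10, against 1.7% of its genes.

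The KI genotypes were also compared with each other, which asks whether the form of HTT that the mutant allele encodes, full-length or fragment, goes with a different level of these genes. The members called by edgeR were 0 of 10 between KI-96 and KI-FL mice (0% of all tested genes), 0 of 10 between KI-571 mice and KI-FL mice (0.0864%), and 0 of 10 between KI-96 and KI-571 mice (0.0054%), and 0 of 10 had an unadjusted p under 0.05 in each, against 8.9%, 8.9% and 5.51% of all tested genes. With DESeq2 the counts were also 0 of 10, against 0.205%, 0.476% and 0.189% of its genes. Between KI-96 and KI-FL mice the smallest p-values from edgeR belonged to Junb (log2 fold change -0.39, 95% interval -1.01 to 0.23, adjusted p = 0.735) and Arc (log2 fold change -0.43, 95% interval -1.27 to 0.42, adjusted p = 0.784). In KI-571 set against KI-FL mice they belonged to Npas4 (log2 fold change 0.62, 95% interval -0.31 to 1.56, adjusted p = 0.69) and Egr1 (log2 fold change 0.24, 95% interval -0.22 to 0.71, adjusted p = 0.76), both higher on average in KI-571 mice. Npas4 and Arc had them between KI-96 and KI-571 mice, with Npas4 (log2 fold change -0.63, 95% interval -1.56 to 0.30, adjusted p = 0.985) and Arc (log2 fold change -0.44, 95% interval -1.28 to 0.41, adjusted p = 0.991), both lower on average in KI-96 mice. All 10 members had a lower mean in KI-96 than in KI-571 mice, with a median log2 fold change of -0.16 (all tested genes, -0.0049). This rested on KI-571 replicate 3. Without it 9 of 10 members were higher in KI-96 than in KI-571 mice, with a median of 0.23, and Arc was at 0.20. With the Xist level as a covariate 10 of 10 were higher in KI-96 mice (median 0.42). Xist was abundant in every KI-96 mouse and in no KI-571 mouse, so that genotype and Xist cannot be told apart in this comparison. Without KI-96 replicate 3 the count was 5 of 10 (median -0.0049). Between KI-571 and KI-FL mice 7 of 10 members were higher in KI-571 mice (median 0.17), and without KI-571 replicate 3 that count was 2 of 10 (median -0.50).

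A single test of any difference among the 4 genotypes called 0 of 10 members, where 0.14% of all tested genes were called by edgeR, and again 0 had an unadjusted p under 0.05, against 11.7% of all tested genes. DESeq2 called 0 of 10, against 2.33% of its genes. The lowest adjusted p in this test was that of Npas4 at 0.687 and the highest that of Egr4 at 0.95. A p that misses the threshold does not show that the genotypes were alike: the 95% interval of Fos in KI-96 mice still held a log2 fold change of -1.79, and that of Egr2 in KI-FL mice one of -1.61.

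Which WT mice served as the reference turned the median of the members from higher to lower in each KI genotype. The members' mean log2 CPM was between 4.66 and 5.55 in WT replicates 1 to 4 and between 5.75 and 6.44 in the more deeply sequenced WT replicates 5 to 7, without overlap. Against WT replicates 1 to 4 alone, 7 of 10 members were higher in KI-96 mice, 10 of 10 in KI-571 mice and 8 of 10 in KI-FL mice, with median log2 fold changes of 0.064, 0.33 and 0.14. Against WT replicates 5 to 7 alone, 1 of 10 was higher in each KI genotype and the medians were -0.70, -0.46 and -0.60. The member that stayed higher was Egr1 in KI-96 and again in KI-571 mice, and Fosb in KI-FL mice. No member was called in either setting. Over all settings tried, the genes called of all those tested ran from 0 to 28 in KI-96, 0 to 102 in KI-571 and 0 to 509 in KI-FL mice. Whether these WT mice differ by batch is not stated in the labels, and the part of sequencing depth in the difference was not tested.

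**Figure D3:**
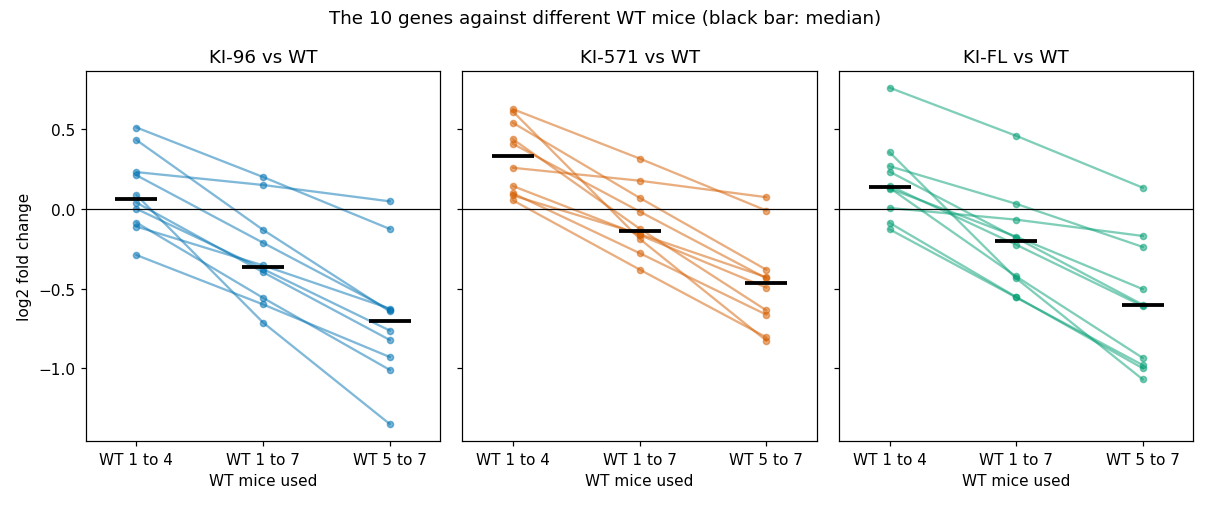
Log2 fold changes of the 10 genes in the 3 KI genotypes (lines: single genes; black bars: median) against WT replicates 1 to 4, all 7 WT mice, and WT replicates 5 to 7. The median runs from 0.33 to -0.46 in KI-571 mice and crosses 0 in all 3 panels.

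The KI-96 values also shifted with Xist. With the log2 level of Xist as a covariate, 10 of 10 members were higher in KI-96 mice (median 0.23), in place of 2 of 10, while in KI-571 and KI-FL mice the counts stayed at 3 and 2 of 10. Since all KI-96 mice and only 1 of 7 WT mice had abundant Xist, genotype and Xist cannot be told apart in KI-96 mice. Single mice turned the KI-571 values: without KI-571 replicate 3, 0 of 10 members were higher than in WT and the median was -0.71, and without KI-571 replicate 4, 8 of 10 were higher with a median of 0.11. Leaving out KI-571 replicate 1 gave 7 of 10 with a median of 0.070, and leaving out WT replicate 5 or WT replicate 6 gave 6 and 5 of 10 with medians of 0.035 and 0.017. In KI-FL mice the median was -0.37 without KI-FL replicate 4, the library with many genes at 0, and -0.078 without KI-FL replicate 2. For KI-96 mice it ranged from -0.21 without KI-96 replicate 3 to -0.49 without KI-96 replicate 2. Across all of these, 0 members were called. Over all settings against WT the genes called of all those tested numbered 0 at the fewest and 509 at the most.

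The members varied strongly between mice of the same genotype. The standard deviation of log2 CPM about the genotype means was 0.993 for Egr2, 0.985 for Fos, 0.768 for Npas4, 0.715 for Fosl2, 0.683 for Arc, 0.644 for Nr4a1, 0.598 for Egr4, 0.493 for Fosb, 0.49 for Junb and 0.361 for Egr1. The median of the 10 was 0.663, against 0.297 over all tested genes. Egr2 had a larger spread than 92.7% of all tested genes and Egr1 than 57.8%. These shares depended on the setting. Over the members they ran from 57.3% to 80.4% with a prior count of 0.5, and from 63.9% to 98% without KI-FL replicate 4. Compared with genes of similar count, the biological coefficient of variation from edgeR was 1.46 times the trend for Egr1, 1.7 times for Fosb, 2.02 times for Junb and between 2.36 and 2.73 times for the other 7, with Arc highest. All 10 lay above the trend of genes with a like count. The highest mouse was above the lowest by 9.99-fold for Egr2, 7.39-fold for Fos, 5.64-fold for Arc and 3.28-fold for Junb.

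The spread was shared: a mouse high for 1 member was high for most. KI-571 replicate 3 was the highest of the 19 mice for 8 of the 10 genes, with a mean log2 CPM over the members of 6.60, and all 10 were above their mean over the 19 mice in that mouse, in WT replicates 5 and 6 and in KI-FL replicate 4. At the other end, 0 of 10 were above that mean in KI-571 replicate 4 (4.58), WT replicate 3 (4.66) and KI-FL replicate 2 (4.92). KI-571 mice alone therefore spanned the whole range of the series, with a standard deviation of 0.870 in this mean, against 0.576 in WT, 0.481 in KI-FL and 0.354 in KI-96 mice. The genotype means of this quantity were 5.66 in WT, 5.42 in KI-96, 5.45 in KI-571 and 5.49 in KI-FL mice, closer to each other than mice of 1 genotype were.

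**Figure D4:**
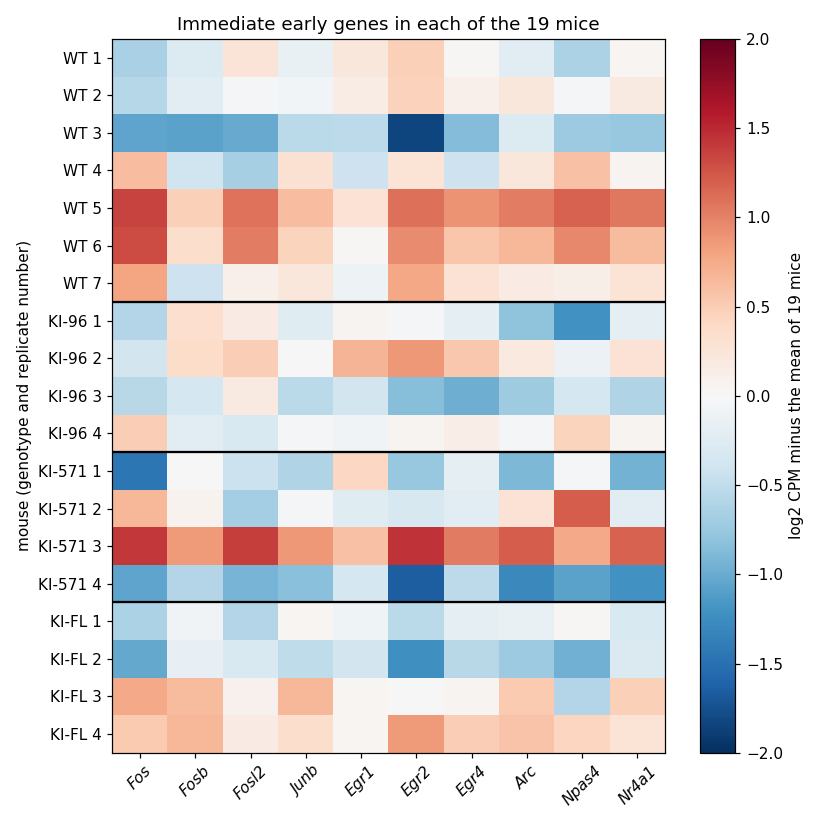
Log2 CPM of each gene (columns) in each mouse (rows, by genotype and replicate number), as the difference from the mean of the 19 mice; red is higher and blue lower. Whole rows share a colour: KI-571 replicate 3 and WT replicate 5 are red for all 10 genes, and KI-571 replicate 4 and WT replicate 3 are blue for all 10.

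Over the 19 mice, with each gene taken as its deviation from the genotype mean, the 45 pairs of members had a median Pearson r of 0.791 (range 0.264 to 0.942) and a median Spearman rho of 0.768. These are descriptions: values of 1 mouse share its library, dissection and depth. Junb and Nr4a1 (r = 0.942), Junb and Arc (0.937), and Arc and Nr4a1 (0.923) were the pairs most alike, as were Egr2 and Egr4 (0.923) among the zinc finger genes. Without the 2 mice farthest from the median, KI-571 replicate 3 and WT replicate 3, the median r was 0.719 (range 0.00993 to 0.922). It was 0.829 within the 7 WT mice and 0.772 within the 12 KI mice. Against the mean of the other 9 members, Nr4a1 followed most closely (r = 0.964) and Egr1 least (0.641), with Npas4 (0.686) next to it.

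Egr1 and Fos were the pair least alike (r = 0.264, and 0.00993 without those 2 mice). In KI-571 replicate 1 Egr1 was at 361 CPM, exceeded in only 2 other mice, while Fos was at 4.18 CPM, the lowest of all 19 mice. KI-571 replicate 2 showed the opposite, with Egr1 at 229 CPM and Fos at 18.3 CPM. Npas4 had its highest level of all mice there, at 51.8 CPM. The same mouse had the 2nd highest score of cortical neuron markers (4.54, summed level 481 CPM), after WT replicate 3 (5.53, 1110 CPM), where all other mice scored 3.26 or less, and the part of this in its levels was not tested. The members therefore did not move as a single quantity in every mouse.

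Among all tested genes outside the list, the 8 that followed the members' mean most closely, by Pearson r over the 19 mice, were Fchsd1 (r = 0.877), Map3k14 (0.851), Insc (0.835), 1700016P03Rik (0.811), Nr4a3 (0.804), Msantd1 (0.798), Nkx2-1 (0.793) and Fam234a (0.789). Nr4a3 is a close relative of Nr4a1 and itself an immediate early gene, with a mean of 29.3 CPM. The transcript 1700016P03Rik, on chromosome 11 from 75172560 to 75177633 of GRCm38, contains the genes of the microRNAs miR-212 (Mir212, 75173388 to 75173478) and miR-132 (Mir132, 75173682 to 75173747) on the same strand. It was at 9.19 CPM on average and was 5.25-fold higher in the highest than in the lowest mouse. Map3k14 encodes the kinase NIK of the noncanonical NF-κB pathway. These genes were taken from the top of 18521 values of r, so that high values arise among them by selection. Over all tested genes the median r was -0.027, and 3.04% had an r above 0.5. Without the same 2 mice, r was 0.856 for Fchsd1, 0.860 for Map3k14, 0.724 for 1700016P03Rik and 0.665 for Nr4a3.

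Other genes of the pathway were taken from 4 lists. Of 18 other rapid transcription factors, 24 rapid signalling and feedback genes, 12 later activity-induced effectors and 26 regulators upstream of the rapid genes, all were tested and 0 passed in either direction in any KI genotype against WT by edgeR. The lowest unadjusted p-values among the rapid transcription factors in KI-96 mice belonged to Nr4a2 (log2 fold change -2.28, standard error 0.95, adjusted p = 0.639), a nuclear receptor also present in cortical neurons, and Klf10 (log2 fold change 0.34, standard error 0.21, adjusted p = 0.739). In KI-571 mice they belonged to Maff (log2 fold change 0.55, standard error 0.33, adjusted p = 0.772) and Csrnp1 (log2 fold change -0.24, standard error 0.16, adjusted p = 0.811), and in KI-FL mice to Nr4a2 (log2 fold change -2.66, standard error 0.99, adjusted p = 0.189) and Ier2 (log2 fold change -0.66, standard error 0.27, adjusted p = 0.217), by edgeR. Nr4a2 ranged from 0 to 39.2 CPM over the mice.

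Among the signalling and feedback genes, many of which damp the response, those with the smallest p by edgeR were Dusp1 (log2 fold change -0.45, standard error 0.21, adjusted p = 0.669) and Ccn1 (log2 fold change -0.50, standard error 0.25, adjusted p = 0.679) in KI-96 mice, of which Dusp1 encodes a MAP kinase phosphatase. They were Ptgs2 (log2 fold change 1.14, standard error 0.34, adjusted p = 0.269), the gene of cyclooxygenase 2, and Pim1 (log2 fold change -0.53, standard error 0.28, adjusted p = 0.715) in KI-571 mice, and Ptgs2 (log2 fold change 0.84, standard error 0.35, adjusted p = 0.227) and Dusp14 (log2 fold change -0.50, standard error 0.24, adjusted p = 0.292) in KI-FL mice. Ptgs2 was higher on average than in WT in both of the last 2 genotypes and also in KI-96 mice (log2 fold change 0.31). Its level was low, with a mean of 2.14 CPM and a range from 0.83 to 4.57 CPM over the mice. Of the later effectors, Tll1 and Inhba came first in KI-96 mice, with Tll1 (log2 fold change 0.54, standard error 0.31, adjusted p = 0.72) and Inhba (log2 fold change 0.32, standard error 0.19, adjusted p = 0.72) by edgeR. Then came Sorcs3 (log2 fold change -0.40, standard error 0.17, adjusted p = 0.56) and Scg2 (log2 fold change -0.22, standard error 0.15, adjusted p = 0.835) in KI-571 mice and Scg2 (log2 fold change 0.46, standard error 0.15, adjusted p = 0.148) and Bdnf (log2 fold change -2.44, standard error 1.05, adjusted p = 0.248) in KI-FL mice. Scg2, which encodes secretogranin II, a precursor of secreted peptides, was lower on average in KI-571 and higher in KI-FL mice. Bdnf was scarce, with a mean of 1.29 CPM and a range from 0 to 8.38 CPM over the mice.

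Upstream, Mrtfb (log2 fold change 0.50, standard error 0.18, adjusted p = 0.609) and Crtc1 (log2 fold change 0.28, standard error 0.12, adjusted p = 0.649) came first in KI-96 mice by edgeR, Crtc1 (log2 fold change 0.30, standard error 0.12, adjusted p = 0.519) and Rps6ka5 (log2 fold change -0.22, standard error 0.12, adjusted p = 0.703) in KI-571 mice, and Mrtfa (log2 fold change 0.29, standard error 0.09, adjusted p = 0.128) and Mef2d (log2 fold change 0.29, standard error 0.095, adjusted p = 0.145) in KI-FL mice. Mrtfa and Mrtfb encode coactivators of SRF and Crtc1 one of CREB, and all were higher on average in the KI mice named. The median log2 fold change of the 26 regulators was 0.076 in KI-96, 0.074 in KI-571 and 0.12 in KI-FL mice, and that of the members in the same mice was -0.37, -0.14 and -0.20. Against WT replicates 1 to 4 alone the medians of the members were 0.064, 0.33 and 0.14. Those of the regulators were not computed against these WT mice.

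The lists differed in how closely they followed the members from mouse to mouse. The rapid signalling and feedback genes had a median r of 0.370 with the members' mean, and 8 of 24 had an r above 0.5: Per1 (0.780), Dusp1 (0.775), Tiparp (0.769), Sik1 (0.683), Arl4d (0.636), Rgs2 (0.635), Ccn1 (0.621) and Dusp5 (0.508). Among the other rapid transcription factors the median was 0.119 and 5 of 18 were above 0.5, namely Nr4a3 (0.804), Btg2 (0.728), Maff (0.591), Jun (0.544) and Jund (0.538), whereas Egr3 (0.187) and Nr4a2 (-0.39) were not. Egr3, a relative of Egr1, was abundant at 205 CPM on average and varied little, from 155 to 304 CPM. Later effectors had a median of -0.17 and only Gpr3 (0.679) above 0.5, and the upstream regulators one of -0.0041, with Crtc3 (0.603) and Srf (0.519) above 0.5 and Mef2c (-0.65) lowest.

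Some marker lists moved with the members. The score of the 5 red cell markers had an r of 0.545 and a rho of 0.707 with the members' mean (r = 0.594 without the same 2 mice), and that of the 6 oligodendrocyte markers an r of 0.503 (0.257 without them). The choroid plexus score had an r of -0.50 (-0.37 without them) and the cortical neuron score one of -0.40 (0.00699 without them). Striatal projection neuron, astrocyte, microglia and blood vessel scores had r values of 0.0981, 0.418, 0.0151 and -0.24. Of the 9 cortical markers 5 were detected in every mouse, with a summed level from 69.8 to 1110 CPM, and of the 6 choroid plexus markers 4, with a summed level from 36.6 to 5370 CPM. All red cell markers were detected in every mouse. Their summed level was 79.5 to 214 CPM in WT, 86.6 to 141 in KI-96, 163 to 483 in KI-571 and 43.5 to 103 in KI-FL mice. By edgeR 2 of 5, Hbb-bt and Alas2, were called higher in KI-571 than in WT mice (adjusted p = 0.0467 and 0.0281), where 0.0324% of all tested genes were called. Hbb-bt had an r of 0.506 with the members' mean and Alas2 one of 0.102. The members' score also had an r of 0.383 with the log2 of the total counts. The part of blood, of cell make-up or of depth in the members' values was not tested.

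Since the members shared most of their spread, each was also set against the mean of the other 9 in the same mouse, a comparison chosen after the values were seen. The log2 CPM of Fosb lay between -1.61 and -1.11 relative to the mean of the others in the 7 WT mice (mean -1.30 ± 0.178, SD). Values of -0.24, -0.83, -0.73 and -1.21 were found in KI-96 replicates 1 to 4, of -0.35, -0.89, -1.16 and -0.51 in KI-571 replicates, and of -0.71, -0.41, -0.50 and -0.65 in KI-FL replicates. All 4 KI-FL mice, 3 KI-571 mice and 3 KI-96 mice lay above every WT mouse, 10 of the 12 KI mice in all. WT replicates 1 to 4 (-1.36 to -1.11) and 5 to 7 (-1.61 to -1.28) overlapped here, and WT replicate 3, the WT mouse with the lowest mean over the members, was at -1.13. Of the 30 pairs of a member and a KI genotype, this was the only one, Fosb in KI-FL mice, whose range did not overlap that of WT. Taken relative to the members in the same way, 0.0972%, 0.0702% and 0.373% of all tested genes had ranges in KI-96, in KI-571 and in KI-FL mice, in this order, that did not overlap WT. Most tested genes did not follow the members, and for them the subtraction adds the members' own spread.

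In edgeR fits over all tested genes with the mean of the other 9 members as a covariate, a setting chosen once the values were known, the log2 fold change of Fosb was 0.48 (95% interval 0.19 to 0.77) in KI-96, 0.49 (95% interval 0.21 to 0.78) in KI-571 and 0.66 (95% interval 0.38 to 0.94) in KI-FL mice. All 3 intervals exclude 0, but after adjustment over all genes no value passed: the adjusted p from edgeR was 0.645, 0.304 and 0.0593, and 0.0821 for all KI mice. In these fits between 2 and 32 of the 18521 genes were called. The other members gave smaller values: Arc was at -0.40 (adjusted p = 0.715) in KI-96 mice and Nr4a1 at -0.31 (adjusted p = 0.441) in KI-571 mice, and 0 of 40 values passed the adjusted threshold by edgeR, while 6 had an unadjusted p under 0.05, of which 4 were those of Fosb.

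**Figure D5:**
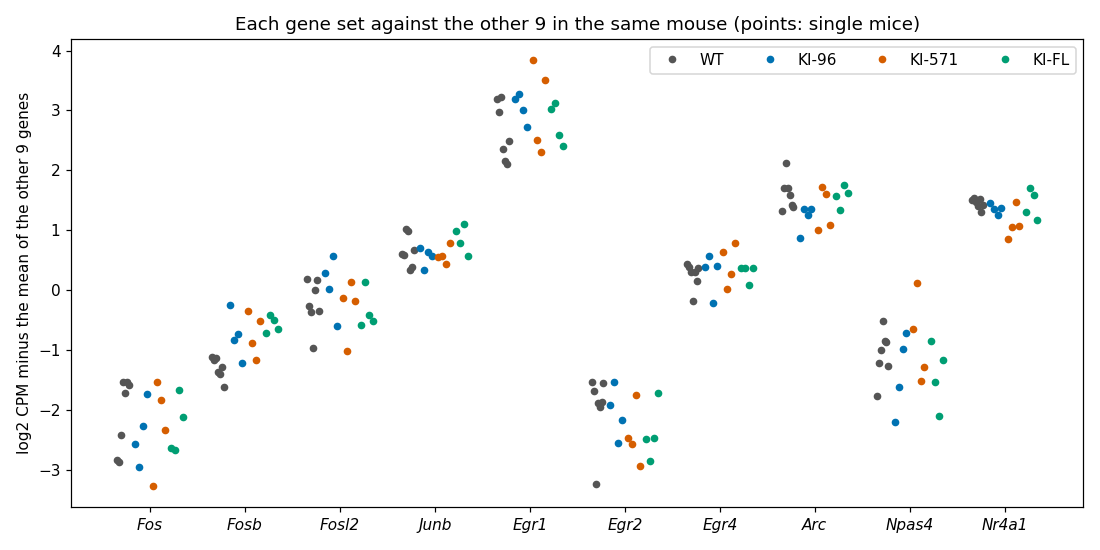
Log2 CPM of each gene minus the mean of the other 9 genes in the same mouse (points: single mice, by genotype). For Fosb the 7 WT mice lie between -1.61 and -1.11 and the 4 KI-FL mice between -0.71 and -0.41; for the other 9 genes every KI genotype overlaps WT.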

How the data were processed

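Striatal RNA of 19 mice was sequenced, and the authors deposited 1 table of raw read counts per gene, made by trimming with BBduk, alignment with STAR to GRCm38 and counting with HTSeq. Versions and the strand setting are not given in the sources used here. Groups came from the labels. The study's model held a sacrifice batch and left out 1 WT mouse as an outlier; the labels give neither, so all mice were used without that term. In addition, 4 columns of no sample and 5 HTSeq summary lines were left out.

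Genes were filtered with filterByExpr (minimum count 10, total 15), scaled by TMM and tested with edgeR 4.0.16 (R 4.3.3) by quasi-likelihood tests over all 4 genotypes, with Benjamini-Hochberg adjustment over 18521 genes and a threshold of 0.05. DESeq2 1.42.0 was an alternative. CPM and log2 CPM (prior count 2) served for levels and correlations, and RPKM used the length of annotated exons. Correlations used deviations from genotype means. Scripts were tested on simulated data. Other alternatives were DESeq2 size factors, other filters, surrogate variables (sva 3.50.0), covariates, a replicate block, parts of the WT mice and leaving out each mouse.

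The members and lists were chosen with earlier results of these data known. The genes named were all members, the 2 smallest p-values of each list or comparison, and the 8 genes most like the members' mean by r. Other list genes were named where r passed 0.5 or after their values were seen. Nothing says that replicates share or lack a litter or cage, so that p-values measure the spread between these mice. Total counts per mouse were 12669809 to 26388542, which leaves the counting error of the members small beside their spread between mice. This does not hold for scarce genes such as Bdnf, with a mean of 1.29 CPM and 0 in the lowest mouse.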

Additional observations from a re-analysis of the deposited data

Results flagged for a closer look

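Egr2 in WT replicate 3 was at 1.74 log2 CPM, far from the other 6 WT mice, which lay between 3.85 and 4.68. It was found by comparing, for each member and genotype, the gap from the lowest or highest mouse to its neighbour with the range of the group. Of 40 such groups this was the only one, where chance gives about 1 in 20, or about 2. The same mouse was the lowest WT mouse for all 10 members and had the highest summed level of cortical neuron markers, and the part of this in the value was not tested.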

How the results depend on the processing

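In every setting tried 0 members were called in any comparison, and the lowest adjusted p of the 1236 alternative values was 0.0593. The genes called of all those tested ran from 0 to 509 over the settings and comparisons. Where no gene at all was called, the count of members could only be 0. They belong to 38 results: every member in each KI genotype against WT, and in the other comparisons only the 2 members with the smallest p. Of the 1236 values 1141 kept their direction and 95 had the opposite one, 33 of them with a mouse left out. Turns of the other members between KI genotypes are not in this count. Without KI-571 replicate 3, for example, 9 of 10 members were higher in KI-96 than in KI-571 mice, where all 10 were lower with every mouse. Values with the opposite direction are given as log2 fold changes, and their cause was not tested. With WT replicates 1 to 4 alone they were Fos 0.088, Fosl2 0.43, Egr2 0.0401, Egr4 0.21, Nr4a1 0.0016 (KI-96 against WT), then Fos 0.61, Fosl2 0.44, Junb 0.085, Egr2 0.054, Egr4 0.41, Arc 0.14, Nr4a1 0.10 (KI-571 against WT), then Fos 0.36, Fosl2 0.13, Egr1 0.0068, Egr4 0.23, Arc 0.13, Nr4a1 0.15 (KI-FL against WT). With WT replicates 5 to 7 alone they were Fosb -0.12 (KI-96 against WT), then Fosb -0.0091, Npas4 -0.38 (KI-571 against WT), then Junb -0.24 (KI-FL against WT), then Fosb -0.00011 (all KI mice against WT). With the Xist level as a covariate they were Fos 0.62, Fosl2 0.079, Junb 0.24, Egr2 0.22, Egr4 0.24, Arc 0.21, Npas4 0.51, Nr4a1 0.073 (KI-96 against WT), then Junb 0.14, Arc 0.28 (KI-96 against KI-FL), then Arc 0.44, Npas4 0.49 (KI-96 against KI-571). With the cortical marker score as a covariate they were Fos 0.0084, Fosl2 0.00058, Egr4 0.10 (KI-571 against WT). With the mean of the other 9 members as a covariate, chosen after seeing the data, they were Fosl2 0.29, Egr2 0.014, Egr4 0.029 (KI-96 against WT), then Egr4 0.15 (KI-571 against WT), then Egr1 0.0023, Egr4 0.015, Nr4a1 0.0198 (KI-FL against WT). Junb in KI-FL mice was at -0.0079 with 2 surrogate variables and at -0.00197 without a filter on low counts.

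With the replicate number as a block, members turned to Fos 0.085, Fosl2 0.39, Egr2 0.011, Egr4 0.20 (KI-96 against WT), then Fos 0.53, Fosl2 0.25, Junb 0.014, Egr4 0.40, Arc 0.0023 (KI-571 against WT), then Fos 0.27, Fosl2 0.12, Egr1 0.051, Egr4 0.24, Arc 0.11, Nr4a1 0.087 (KI-FL against WT). The labels do not say that these numbers pair the mice. Of 24 pairs of same-numbered mice 5 had a correlation of deviations over 0.1 (range -0.13 to 0.29), which cannot show whether such mice share a batch. The block leaves out of the comparison the WT mice numbered above 4, which no KI mouse matches. It called 0 members, and the number of all genes it called lay within the range given above.

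Leaving out 1 mouse at a time turned the direction of some values, whose ranges were Fosl2 -0.27 to 0.057, Egr1 -0.10 to 0.28 in KI-96 mice, Fos -0.85 to 0.12, Fosb -0.00301 to 0.50, Fosl2 -0.96 to 0.11, Junb -0.62 to 0.042, Egr1 -0.0033 to 0.31, Egr4 -0.49 to 0.16, Arc -0.80 to 0.11, Npas4 -0.31 to 0.35 in KI-571 mice, Junb -0.18 to 0.21, Egr1 -0.15 to 0.015, Arc -0.35 to 0.029 in KI-FL mice and Arc -0.71 to 0.20 between KI-96 and KI-571 mice. Between KI genotypes only the members with the smallest p by edgeR were followed in this list. Of the 22 turns in KI-571 mice against WT, 15 came without a KI-571 mouse (replicates 1 to 4: 4, 3, 3 and 5) and 7 without a WT mouse. Every member had at least 55 reads in every mouse, and with 4 mice in a KI genotype the intervals of the most variable members were wide.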
